A study of Mus musculus with 6 samples.

Results

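This account concerns the mature strands of miR-199a, miR-199b and miR-214, microRNAs (miRNAs) of connective tissue, in the thymus of irradiated and control mice. The members were taken by name. Of 6 strands named (mmu-miR-199a-3p, mmu-miR-199b-3p, mmu-miR-199a-5p, mmu-miR-199b-5p, mmu-miR-214-3p and mmu-miR-214-5p, below without the prefix for mouse), 5 have a row in the deposited table of 1390 mature miRNAs. MiR-199b-3p has none. Its mature sequence is identical to that of miR-199a-3p, so the miR-199a-3p row stands for both. All mice were C57BL wild-type animals of 5 weeks. The 3 control mice were not exposed, and the 3 irradiated mice were given a dose of 6 Gy (X-rays, 800 cGy/min, 40 cm) and killed 24 h later. Small RNA of the whole thymus was sequenced, with 1 library per mouse.

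A miRNA gene is transcribed into a long primary RNA, from which a hairpin is cut and then a short duplex. One strand of the duplex, named 5p or 3p after its arm of the hairpin, is loaded into an Argonaute protein, where bases 2 to 8 (the seed) choose the messenger RNAs to be repressed. The other strand is usually degraded, and the arm that prevails can differ between tissues. MiR-199a and miR-214 are cut from Dnm3os, a noncoding RNA of mesenchymal cells that runs antisense to the dynamin gene Dnm3 and is needed for normal skeletal growth in mice. They are best known from fibroblasts and fibrosis. The thymus is mostly made of thymocytes, with a minor stroma of epithelium, fibroblasts and vessels.

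The mature sequences are shown 5′ to 3′ with the seed in capitals, because the members fall into 4 seeds and the identity between strands decides which hairpin a read can report on. All are as deposited, except that of miR-199b-3p, which is from RefSeq (GRCm38.p6). For the other members found there (miR-199a-3p, miR-199a-5p, miR-214-3p and miR-214-5p) the deposited and RefSeq sequences are identical.
mmu-miR-199a-3p: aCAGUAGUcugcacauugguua
mmu-miR-199b-3p: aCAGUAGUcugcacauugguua
mmu-miR-199a-5p: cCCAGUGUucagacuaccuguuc
mmu-miR-199b-5p: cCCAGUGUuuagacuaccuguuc
mmu-miR-214-3p: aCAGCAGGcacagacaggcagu
mmu-miR-214-5p: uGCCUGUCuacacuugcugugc

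MiR-199a-5p and miR-199b-5p share a seed and differ by 1 substitution in 23 bases, C10U, counted from the 5′ end of miR-199a-5p. Their reads are therefore separated by a single base. MiR-199a-3p and miR-214-3p match at 8 of 22 positions and have different seeds. No other miRNA in the table has any of the 4 seeds, so changes in these rows are the whole measured change of each seed.

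The hairpins are shown with both mature strands in capitals, from RefSeq (GRCm38.p6), because the 3p strand is the same in 3 of the 4 and the 5p strand is not.
Mir199a-2: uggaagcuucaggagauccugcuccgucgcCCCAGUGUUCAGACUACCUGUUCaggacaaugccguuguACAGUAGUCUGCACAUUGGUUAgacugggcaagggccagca
Mir199a-1: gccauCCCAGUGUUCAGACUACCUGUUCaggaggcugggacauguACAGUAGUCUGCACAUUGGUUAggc
Mir199b: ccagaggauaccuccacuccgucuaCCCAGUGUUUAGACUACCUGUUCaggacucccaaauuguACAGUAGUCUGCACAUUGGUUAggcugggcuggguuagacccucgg
Mir214: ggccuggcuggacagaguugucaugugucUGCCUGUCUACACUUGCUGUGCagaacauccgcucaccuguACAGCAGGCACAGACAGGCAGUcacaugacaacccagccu

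Each miR-199 hairpin lies on the opposite strand of a dynamin gene (GENCODE M21, GRCm38). Mir199a-2 (chr1:162217814-162217923, plus strand) and Mir214 (chr1:162223368-162223477, plus strand) are 5444 bp apart, each inside an exon of 2 Dnm3os transcripts and antisense to an intron of Dnm3. Mir199b (chr2:32318460-32318569, plus strand) is antisense to an intron of Dnm1. Mir199a-1 (chr9:21496495-21496564, minus strand) is antisense to an intron of Dnm2. MiR-199a-5p can thus come from Dnm3os or from the Dnm2 locus, miR-199b-5p from the Dnm1 locus alone, and both miR-214 strands from Dnm3os alone. The miR-199a-3p row can hold reads of all 3 miR-199 hairpins. Only for the miR-214 strands does a read report on Dnm3os by itself.

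All 5 measured strands were higher after irradiation, and miR-199a-3p rose far more than the others. Levels are CPM, read counts divided by a library's TMM-scaled total (TMM, trimmed mean of M-values, is a scaling between libraries). A read spans a whole mature strand, so levels are not divided by length, but capture and amplification can differ between sequences and levels of different miRNAs are compared only roughly. Of 519 miRNAs tested with edgeR, 144 (27.7%) were higher in irradiated thymus at an adjusted p of 0.05 and 318 (61.3%) changed in either direction. All 5 members passed upward. All 3 irradiated libraries lay above all 3 control libraries for each of the 5, as for 32% of all miRNAs tested. The median log2 fold change was 1.55 over the 5 members and 0.01 over all 519. In bulk tissue, more cells of a type among those left and more miRNA per cell cannot be told apart.

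**Figure D1:**
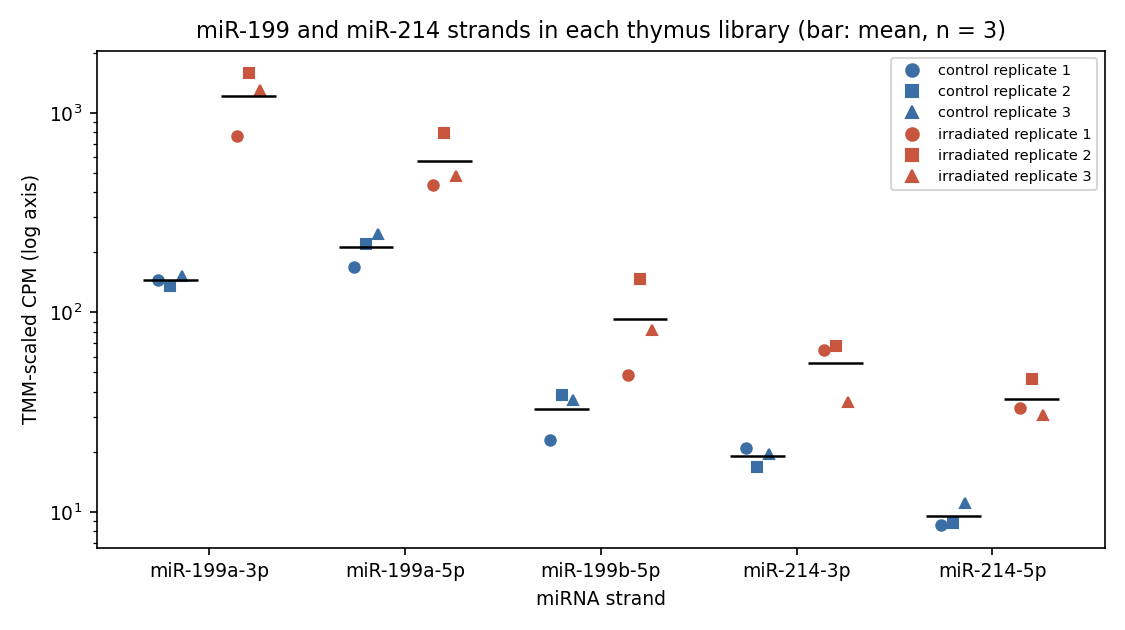
TMM-scaled CPM (log axis) of the 5 measured strands in each of the 6 libraries, control in blue and irradiated in red, with bars at the means of 3. The irradiated points lie above the control points for every strand, and the order of miR-199a-3p and miR-199a-5p differs between the groups.

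MiR-199a-3p, which represses growth genes such as Mtor and Met, had 1024, 1469 and 1244 reads in control replicates 1, 2 and 3 and 5879, 13249 and 12253 in irradiated replicates 1, 2 and 3. In CPM these are 146, 136 and 153 in control and 767, 1582 and 1301 in irradiated libraries. The control values were close together after scaling by TMM factors of 0.823, 1.39 and 0.989 in control replicates 1, 2 and 3. Every irradiated value was far above them, with irradiated replicate 1 the lowest. The mean went from 145 ± 8.21 to 1217 ± 414 CPM (SD, n = 3). The log2 fold change was 3.07 ± 0.32 (SE), 8.39-fold (edgeR adjusted p 5.2e-05). It ranked 10 from the top among the log2 fold changes of the 519 miRNAs tested, and 9 among the 311 with a mean of at least 10 CPM. By level it went from rank 139 in control to rank 56 in irradiated thymus.

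MiR-199a-5p, whose known targets include the caveolin gene Cav1 in lung fibroblasts, stood at 169, 220 and 248 CPM in the controls against 433, 798 and 486 CPM after irradiation. Replicate 1 was the lowest and replicate 2 the highest of the irradiated libraries, and none reached down to the control range. The mean went from 212 ± 39.8 to 572 ± 197 CPM (SD, n = 3), and the log2 fold change was 1.43 ± 0.31 (SE; edgeR adjusted p 0.0031).

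MiR-199b-5p has the same seed and comes from the Dnm1 locus. Its control values were 23.0, 38.6 and 36.3 CPM, and its irradiated values 48.8, 147 and 81.8 CPM. Irradiated replicate 1 was just above the highest control, and replicate 2 was about 3 times as high as replicate 1. The mean went from 32.6 ± 8.45 to 92.5 ± 50.0 CPM (SD, n = 3), and the log2 fold change was 1.502 ± 0.41 (SE; edgeR adjusted p 0.0099). It had the widest error of the 5 members.

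MiR-214-3p, which had more reads than the other strand of its hairpin, measured 20.8, 16.8 and 19.5 CPM in the controls and 64.7, 67.5 and 35.7 CPM after irradiation. Here irradiated replicate 3 was the lowest, unlike for the miR-199 strands, for which replicate 1 was. The mean went from 19.0 ± 2.05 to 55.9 ± 17.6 CPM (SD, n = 3), and the log2 fold change was 1.55 ± 0.32 (SE; edgeR adjusted p 0.0022).

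MiR-214-5p, from the other arm of the same hairpin, had the fewest reads of the members. Its reads were 60, 95 and 90 in control and 253, 388 and 288 in irradiated libraries, or 8.56, 8.82 and 11.0 against 33.0, 46.3 and 30.6 CPM. The groups were well apart, with irradiated replicate 2 the highest. The mean went from 9.47 ± 1.37 to 36.6 ± 8.47 CPM (SD, n = 3), and the log2 fold change was 1.95 ± 0.30 (SE; edgeR adjusted p 4.1e-04).

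The 2 arms of miR-199 changed places in read counts. Reads of miR-199a-3p per read of miR-199a-5p were 0.864, 0.621 and 0.616 in control and 1.77, 1.98 and 2.68 in irradiated libraries. The 5p strand thus had more reads in every control library and the 3p strand in every irradiated one. Capture can differ between the strands, so read counts do not show which arm was the more abundant in the tissue. Of all miR-199 reads (miR-199a-3p, miR-199a-5p and miR-199b-5p), the 3p strand held 37.6% ± 4.88 in control and 64.5% ± 4.44 in irradiated thymus (SD, n = 3). The log2 ratio of 3p to 5p changed by 1.61 ± 0.31 (SE, 95% interval 0.90 to 2.32). Among 146 precursor names with both strands tested the limma adjusted p was 0.024, with 10 precursors (6.85%) called upward and a median change of 0.01. The change was rank 6 from the top of the 146. Library scaling cancels in this ratio.

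The call on the miR-199 arms is close to the threshold. Leaving out a control library ended it, whether replicate 1 (change 1.77, limma adjusted p 0.065), 2 (1.53, p 0.114) or 3 (1.53, p 0.101). So did leaving out irradiated replicate 3 (1.44, p 0.054). Few precursors passed in any of these fits. Without control replicate 1, 0 were higher and 1 lower of 161, and without control replicate 2 or 3, 0 passed. Without irradiated replicate 3, 1 was higher and 2 lower of 153. Over 12 alternatives the adjusted p ran from 0.0023 to 0.114 and the change from 1.36 to 1.77. Since the 3p row also holds reads of Mir199b, the ratio was taken again with miR-199a-5p and miR-199b-5p summed, an alternative chosen after seeing the data. Reads of 3p per read of the summed 5p strands were then 0.761, 0.528 and 0.538 in control and 1.59, 1.67 and 2.29 in irradiated libraries, and the log2 change was 1.61 with a limma adjusted p of 0.024.

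**Figure D2:**
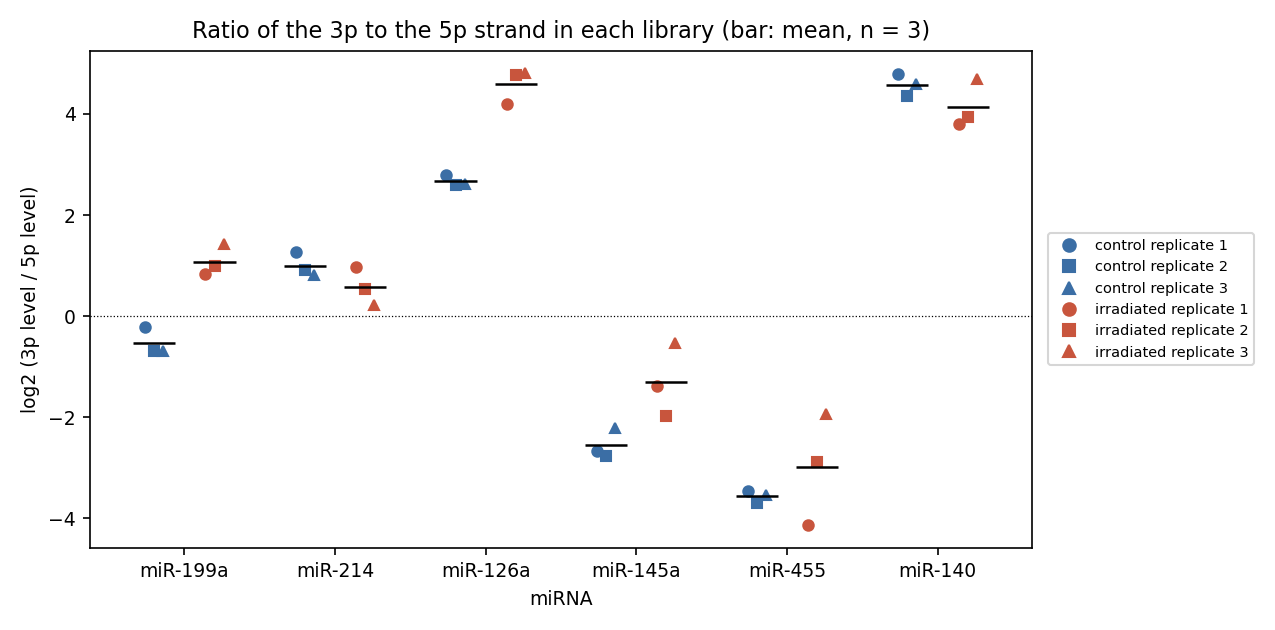
Log2 ratio of the 3p to the 5p strand in each library for miR-199a, miR-214 and 4 other stromal miRNAs, with bars at the means of 3. Values above 0 mean more reads of 3p than of 5p. MiR-199a crosses 0 between control (−0.53 on average) and irradiated (1.08) libraries, while the miR-214 groups overlap.

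The arms of miR-214, cut from Dnm3os as well, gave overlapping groups. Reads of miR-214-3p per read of miR-214-5p were 2.43, 1.91 and 1.77 in control and 1.96, 1.46 and 1.17 in irradiated libraries. The 3p arm had more reads in all 6. The log2 ratio changed by −0.42 ± 0.32 (SE, 95% interval −1.14 to 0.30, limma adjusted p of 0.396). A change of the size seen for miR-199a lies outside that interval, but the difference between the 2 precursors was not tested as such. Of the other stromal precursors, miR-126a of endothelium changed by 1.92 (limma adjusted p of 0.010), and miR-145a of smooth muscle and fibroblasts by 1.25 without passing (limma adjusted p of 0.072). The remaining 4 did not pass, at −0.63 for miR-143, −0.43 for miR-140, −0.79 for miR-335 and 0.58 for miR-455. The miR-126a-5p row has almost the same counts as that of miR-126b-3p, so its reads may be counted in both.

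**Figure D3:**
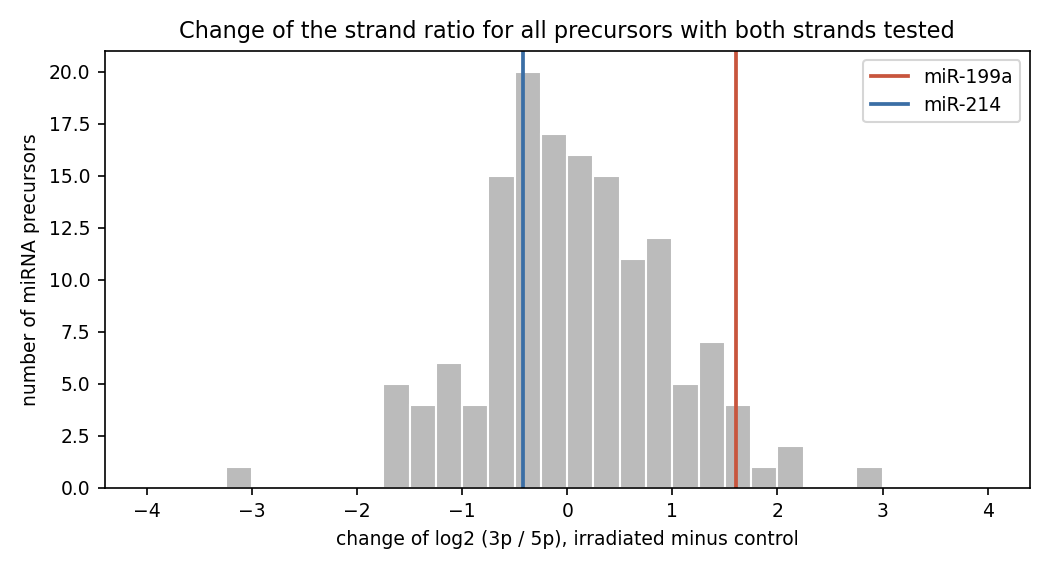
Histogram of the change of the log2 3p to 5p ratio, irradiated minus control, over the 146 precursor names with both strands tested, with lines at miR-199a and miR-214. MiR-199a (1.61) lies in the upper tail and miR-214 (−0.42) in the body of the distribution, whose median is 0.01.

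The proportion of the 2 closely related 5p strands overlapped between the groups. MiR-199b-5p made up 12.0%, 14.9% and 12.8% of the reads with the shared 5p seed in control and 10.1%, 15.6% and 14.4% in irradiated libraries. The mean share was 13.2% ± 1.54 and 13.4% ± 2.86 (SD, n = 3). Within libraries, the log2 ratio of miR-199b-5p to miR-199a-5p changed by −0.01 (95% interval −0.89 to 0.88; limma adjusted p 0.991), an interval too wide to call the strands alike. MiR-214-3p changed by 0.10 (95% interval −0.82 to 1.02) and miR-214-5p by 0.51 (95% interval −0.35 to 1.38) against miR-199a-5p, with limma adjusted p of 0.885 and 0.300. Of the 4 other members only miR-199a-3p passed in this fit, upward (limma adjusted p of 0.0022). Of 518 miRNAs 60.8% passed in either direction, 9 of them higher and 306 lower.

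Against miR-199a-3p, all 4 other members fell. Their log2 ratios to it changed by −1.61 (miR-199a-5p), −1.62 (miR-199b-5p), −1.51 (miR-214-3p) and −1.09 (miR-214-5p), with limma adjusted p of 0.0015, 0.0018, 0.0055 and 0.018. In this fit 94.2% of 518 miRNAs were lower, so the 4 calls are near the background. With irradiated replicate 1 as the only irradiated library the ratios of miR-214-3p (−0.65, limma adjusted p of 0.084) and miR-214-5p (−0.62, 0.0998) did not pass. For miR-214-5p the limma adjusted p was also over the threshold when control replicate 2 (0.061), control replicate 3 (0.089) or irradiated replicate 3 (0.083) was left out (range 0.0020 to 0.0998, 11 alternatives). For miR-214-3p the range was 3.6e-04 to 0.084.

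The start of Dnm3os is shown because 2 of the hairpins, Mir199a-2 and Mir214, lie in this RNA. The strands of both were higher after irradiation, but those of miR-199a can also come from other loci. The window runs from 250 bases before to 50 after the start of the gene (RefSeq, GRCm38.p6, chr1:162217373-162217672, plus strand), with matches to the E-box CANNTG and to the CArG box in capitals. The E-box is read by helix-loop-helix factors such as Twist1, a known regulator of Dnm3os, and the CArG box by serum response factor.
Dnm3os start: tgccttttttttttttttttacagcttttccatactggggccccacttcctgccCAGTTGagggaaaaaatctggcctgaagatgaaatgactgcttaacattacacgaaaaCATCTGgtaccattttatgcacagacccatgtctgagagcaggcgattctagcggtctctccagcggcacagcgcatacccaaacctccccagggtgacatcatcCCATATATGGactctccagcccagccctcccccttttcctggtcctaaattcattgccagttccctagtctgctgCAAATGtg
Both strands were searched, and both motifs read the same on either. The window holds 3 E-boxes and 1 CArG box, CCATATATGG, which do not overlap. An E-box is present in 72.3% of 32851 mouse promoter windows of this length and a CArG box in 1.63%. A match in sequence is no evidence of binding, and no measurement here bears on either factor.

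The members were set against 12 strands of other stromal miRNAs. Of these, 5 were higher, 0 lower and 7 did not pass, with a median log2 fold change of 0.81. All 5 members were higher, with a median of 1.55, and 27.7% of all 519 miRNAs tested were higher. Both lists were chosen with earlier results of these data known, and the difference between them was not tested. MiR-126a-3p of endothelium rose by 2.02 ± 0.26 (SE), from 4615 ± 367 to 18702 ± 4514 CPM (SD, n = 3; edgeR adjusted p 1.5e-04). Its other strand, miR-126a-5p, went from 726 ± 7.88 to 770 ± 125 CPM (SD, n = 3). That change, 0.09, did not pass (edgeR adjusted p 0.768). MiR-145a-3p and miR-143-5p, the minor strands of the smooth muscle and fibroblast pair, rose by 1.75 and 1.46, and their major strands miR-145a-5p (0.61) and miR-143-3p (0.73) did not pass. MiR-335-5p, from an intron of the mesenchymal gene Mest, rose by 1.78. MiR-335-3p rose by 1.14 with an edgeR adjusted p of 0.0499 and overlapping groups, at means of 5.67 and 12.4 CPM. Both miR-335 strands have a mean under 10 CPM over the libraries.

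The miRNAs of cartilage and mesenchyme, miR-140 and miR-455, did not pass. MiR-140-3p measured 4847, 5111 and 6874 CPM in the controls and 1705, 8906 and 6607 CPM after irradiation (log2 fold change 0.03, SE 0.49), and did not pass. MiR-140-5p (0.43), miR-455-5p (0.06) and miR-455-3p (0.90) did not pass. Within libraries the ratio of miR-140-3p to miR-199a-3p changed by −3.26 (95% interval −4.21 to −2.31) and that of miR-455-5p by −2.98 (95% interval −3.84 to −2.12). Their limma adjusted p was 8.9e-06 and 8.0e-06. Over the 518 miRNAs of this fit the median change was −3.07 and 94.2% were lower, so both changes are near the background. MiR-126a-3p came closest among the abundant ones, at −1.01 (95% interval −1.83 to −0.19, limma adjusted p of 0.021). That call was lost in 6 of 11 alternatives (limma adjusted p 0.0033 to 0.079). Among them were the fits that left out control replicate 1 (0.074), control replicate 2 (0.074), control replicate 3 (0.072) or irradiated replicate 3 (0.079), and that with irradiated replicate 1 alone (0.063).

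**Figure D4:**
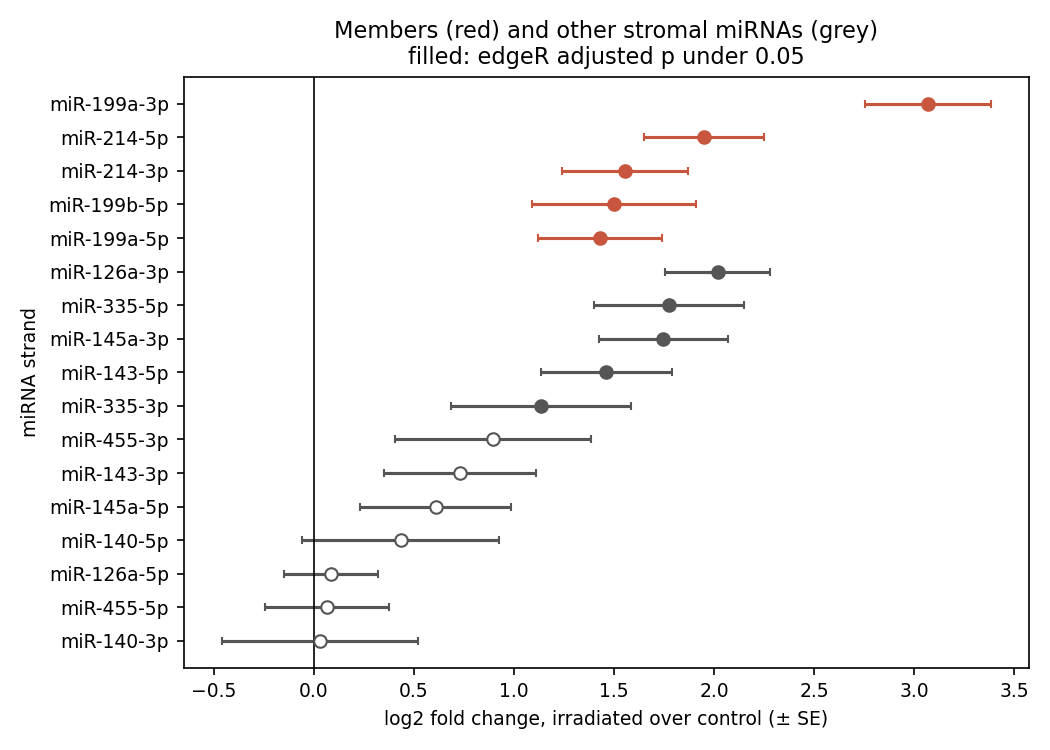
Log2 fold change of irradiated over control with its SE for the 5 members (red) and 12 strands of other stromal miRNAs (grey). Filled points passed an edgeR adjusted p of 0.05. MiR-199a-3p, at 3.07, is the farthest to the right of the 17 strands, and 7 of the grey strands are open.

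Some other miRNAs varied across the 6 libraries in a pattern much like that of miR-199a-3p, though at other levels and with smaller changes. Among 306 other miRNAs with a mean of at least 10 CPM, the 5 with the highest Pearson correlation of log2 CPM were miR-125a-5p (0.998), miR-10b-5p (0.996), miR-126a-3p (0.995), miR-708-5p (0.994) and miR-99a-5p (0.993). The points share 2 groups of 3 libraries, so these values mostly restate the difference between groups. The log2 fold changes of the 5 ran from 1.45 for miR-10b-5p to 2.02 for miR-126a-3p. The members' own correlations with miR-199a-3p were 0.979 for miR-214-5p, 0.952 for miR-199a-5p, 0.892 for miR-214-3p and 0.887 for miR-199b-5p.

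Markers of other cells also differed between the libraries. Of 5 miRNAs of thymocytes and other white blood cells, 4 were lower after irradiation and miR-150-5p (−0.31) did not pass. The 4 were miR-181a-5p, miR-181b-5p, miR-128-3p and miR-142a-3p. The summed level of all 5 was 118616 to 157030 CPM of library totals in control and 4147 to 6165 in irradiated libraries. That of 7 epithelial miRNAs was 10837 to 14208 and 20303 to 28547, where 4 were higher and 3 did not pass, among them the most abundant, miR-200a-3p (0.63). The members together were at 302 to 586 and 1191 to 2592 CPM of library totals. The summed level of 4 striated-muscle miRNAs was 167 to 475 CPM of library totals in control and 533, 19766 and 13589 in irradiated replicates 1, 2 and 3. That of 4 red-cell miRNAs was 425 to 723 in control and 538, 5008 and 2055 in irradiated libraries. Most of the muscle sum is miR-1a-3p, at 191 to 459 CPM in control and 527, 19377 and 13225 in irradiated replicates 1, 2 and 3. The 2 other muscle miRNAs tested were above every control in irradiated replicate 1 too, with miR-206-3p at 61.2 CPM against 3.57 to 13.1 and miR-133a-3p at 13.8 against 4.45 to 8.34. The red-cell miRNAs of irradiated replicate 1 lay within the control range, and those of replicates 2 and 3 above it.

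With irradiated replicate 1 as the only irradiated library, the log2 fold changes of all 5 members were positive. The median over all miRNAs tested in that fit was −0.13. This alternative was chosen after seeing the data and assumes that the lone library varies like the controls. The log2 fold changes were then 2.60 for miR-199a-3p, 1.24 for miR-199a-5p, 0.78 for miR-199b-5p, 1.97 for miR-214-3p and 2.004 for miR-214-5p. For miR-199b-5p this was 0.78 in place of 1.502 (edgeR adjusted p 0.026, range 1.1e-04 to 0.036 in 17 alternatives). Both miR-214 strands were as large or larger without the other 2 irradiated libraries. Of the 5 miRNAs of thymocytes and other white blood cells, 4 separate all control from all irradiated libraries. Their part in these changes cannot be told apart from the irradiation.

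Library totals were 7730641 to 9287017 counts, with 828 to 924 miRNAs counted in each. The members held 0.0302% to 0.0586% of the counts in control and 0.119% to 0.259% in irradiated libraries, and their lowest single count was 60. No member was at 0 in any library.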

How the data were processed

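Whole-number read counts per mature miRNA were used as deposited, per the file headers, for 3 control and 3 irradiated libraries. For the aligner, the counter and the genome build the sources used here give no name, and the submitters' processing notes name DESeq2 1.10.1. The labels call the molecule polyA RNA. Of the table's count columns, 6 match no label and were left out.

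Counts were tested in R 4.3.3 with edgeR 4.0.16 (filterByExpr, TMM factors of 0.823 to 1.39, robust quasi-likelihood test, Benjamini-Hochberg adjustment over 519 miRNAs, threshold 0.05). Strand ratios and ratios to a reference miRNA were log2 CPM differences (prior count 2) fitted with robust limma 3.58.1 over all 146 precursor names or 518 miRNAs. The edgeR and strand-ratio steps were checked on simulated counts, with the same dispersion (spread beyond counting noise) for every miRNA and as many raised as lowered. That setting does not cover the uneven spread between the irradiated libraries or the fall of abundant miRNAs. Named miRNAs were the members, a stromal list and the 5 most like miR-199a-3p. Members and lists were chosen with earlier results of these data known. Alternatives were other scalings, filters, DESeq2 1.42.0, limma-voom, the replicate number as a block, collapsed identical rows, other prior counts and leaving out libraries. P-values measure the spread between these libraries. The SE of an edgeR log2 fold change was taken as its size divided by the square root of the test's F statistic. Reads carry no molecular identifiers.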

Additional observations from a re-analysis of the deposited data

How the results depend on the processing

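Each of the 5 members stayed higher and past the threshold in all 17 alternatives, with log2 fold changes of 2.60 to 3.48 for miR-199a-3p, 1.17 to 1.85 for miR-199a-5p, 0.78 to 1.90 for miR-199b-5p, 1.30 to 1.98 for miR-214-3p and 1.69 to 2.37 for miR-214-5p. The median of all tested miRNAs, 0.01 with TMM, was −0.13 when scaled by library totals, 0.12 by median-of-ratios and 0.44 by upper quartile, and the last gave 206 higher and 139 lower miRNAs in place of 144 and 174. With a mean of at least 10 CPM, 210 miRNAs passed in place of 318, since fewer were tested. The 3p to 5p change of miR-199a was 1.44 to 1.77 with 1 library left out, and 1.36 (limma adjusted p of 0.087) with irradiated replicate 1 alone. Against miR-199a-5p, the change of miR-199b-5p was −0.15 to 0.21 and that of miR-214-3p −0.21 to 0.32 with 1 library left out, and neither passed. Deviations from the group mean had correlations of 0.099, −0.024 and 0.230 between same-numbered control and irradiated libraries. Between libraries of unlike number they were −0.254 to 0.108. Values this weak neither show nor exclude a pairing by number. With the replicate number as a block 298 miRNAs and all 5 members passed, with miR-199a-3p at 3.01. The miR-199a strand change was again 1.61 (limma adjusted p of 0.0023), with an SE of 0.38 in place of 0.31. In that fit 17 precursors were higher and 16 lower of 146, in place of 10 and 10. Under the block the ratio of miR-126a-3p to miR-199a-3p no longer passed (−1.01, limma adjusted p of 0.054). The lowest member counts were those of miR-214-5p, 60 to 95 in control.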
